A study of Mus musculus with 10 samples.

Results

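Untreated squamous cell carcinomas grown from Sox2Hi cells were compared with untreated control tumours through the RNA of the neutrophils sorted from them. This comparison used 6 of the 10 libraries of the study, chosen by the graft and treatment in their labels: 3 of neutrophils from Sox2Hi tumours and 3 from control tumours, all naive, meaning that no treatment was given. The control graft was the parental squamous cell carcinoma (SCC), called Sox2low, and the other was Sox2Hi SCC, named for a high level of Sox2, a transcription factor of stem cells and of the embryonic foregut. The names of the deposited columns carry C57 for all libraries and GFP for the control graft. All hosts were CatchupIVM-red mice, in which a red fluorescent Tomato reporter is driven from the Ly6g locus, a gene of mature mouse neutrophils, and Tomato+ cells were sorted. The other 4 libraries, 2 of each graft, came from tumours treated with an antibody against PDL1 and a CD40 agonist. They entered the model for its estimate of the spread and were compared as a separate set. The labels do not say what age or sex the hosts were, or whether a library is 1 tumour. The p-values therefore measure the spread between these libraries, which may not be that between animals.

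Neutrophils are short-lived granulocytes that reach tumours from the blood and take on different states there. Interferons signal through the receptors Ifnar1 and Ifngr1 and the kinases of the JAK family to STAT factors, which switch on a shared set of interferon-stimulated genes, and in tumours this programme has been linked to neutrophils that act against the tumour. The study set out to learn if Sox2 in stem-like tumour cells blunts interferon responses of neutrophils. The carcinoma cells are of epithelial origin, and epithelia differ in their keratins: basal cells of stratified skin make Krt5 and Krt14, whereas simple and glandular epithelia make Krt7, Krt8, Krt18 and Krt19.

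Libraries of the naive tumours held from 13815734 to 18267413 counts over genes. Levels are counts scaled to library size (CPM), with scaling factors taken from expressed genes, and a gene was called at an edgeR quasi-likelihood adjusted p-value under 0.05. Ly6g stood at 2.30 ± 0.85 CPM in control and 2.37 ± 0.65 CPM in Sox2Hi libraries (SD, n = 3 each), so the gene behind the reporter was at a low level in both grafts. The 20 neutrophil identity genes together took 1.78% to 2.76% of counts in control and 1.84% to 2.55% in Sox2Hi libraries, and tdTomato had 135 to 259 and 192 to 314 reads. Sox2 had 31, 31 and 43 reads in control and 15, 19 and 26 in Sox2Hi libraries, and silent-gene background equalled 46.4% of them. These are neutrophil libraries, so this level does not check the Sox2 of the graft. Sox2 lay under the level of 5 CPM set for the main test, and in a fit of 29648 genes that kept lower levels its log2 difference was -0.96 (SE 0.34, edgeR adjusted p-value 0.088). Ddx3y, a gene of the Y chromosome, had 4, 3854 and 1436 reads in control and 6, 2814 and 1007 in Sox2Hi libraries. The libraries numbered 1 stood apart from the others in both grafts in the same way, and those numbered 3 lay between the others.

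Of 11274 genes tested, 1327 were called between the naive grafts (11.8%), 359 higher in Sox2Hi (3.18%) and 968 lower (8.59%). The median log2 difference of all genes tested was 0.04. The libraries of the grafts did not overlap for 16.9% of genes with Sox2Hi above control and for 17.6% with Sox2Hi below. With a block for the replicate number, set for naive libraries alone, the calls came to 1668 (14.8%), 515 higher (4.57%) and 1153 lower (10.2%). The balance of higher and lower depended on the scaling. Higher genes made up 27.1% of the calls here, against 88.5% when factors came from all 29648 genes with counts (558 calls or 1.88%, 494 higher or 1.67% and 64 lower or 0.216%). That scaling moved the median of those 29648 genes from -0.37 to -0.08, so each gene or list below stands about that much higher on it. Leaving out control naive replicate 1 or 2 or Sox2Hi naive replicate 3 left 3, 14 and 4 calls, and leaving out Sox2Hi naive replicate 1 or 2 left 788 and 506. Leaving out control naive replicate 3 gave 1997. Sptssb and Clu kept their calls in all of these 6 fits. The other 33 of the 35 genes named by rule and called lost theirs in at least 1.

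Sptssb and Clu had the largest rises among the genes that met the rule for naming. Sptssb (ENSMUSG00000043461, chromosome 3, 69819542 to 69859940 in GRCm38) encodes a small subunit of serine palmitoyltransferase, the enzyme that begins sphingolipid synthesis. It stood at 4.96, 1.499 and 2.39 CPM in control libraries 1 to 3 and at 43.7, 26.9 and 39.6 CPM in Sox2Hi libraries. The lowest Sox2Hi library was above 5 times the highest control library. It was higher by 3.63 on the log2 scale (SE 0.40, edgeR adjusted p-value 0.0083), and this ran from 3.33 to 4.20 over the alternatives. Sptssb averaged 2.95 CPM in control naive libraries and passed the filter of 5 CPM through its Sox2Hi libraries. Clu (ENSMUSG00000022037, chromosome 14, 65968483 to 65981547) encodes clusterin, a secreted chaperone. Its control libraries gave 6.82, 10.2 and 12.03 CPM and its Sox2Hi libraries 104, 103 and 102 CPM. The 3 Sox2Hi libraries were almost equal, and the groups were far apart. Its log2 difference was 3.41 (SE 0.31, edgeR adjusted p-value 0.0039).

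**Figure D1:**
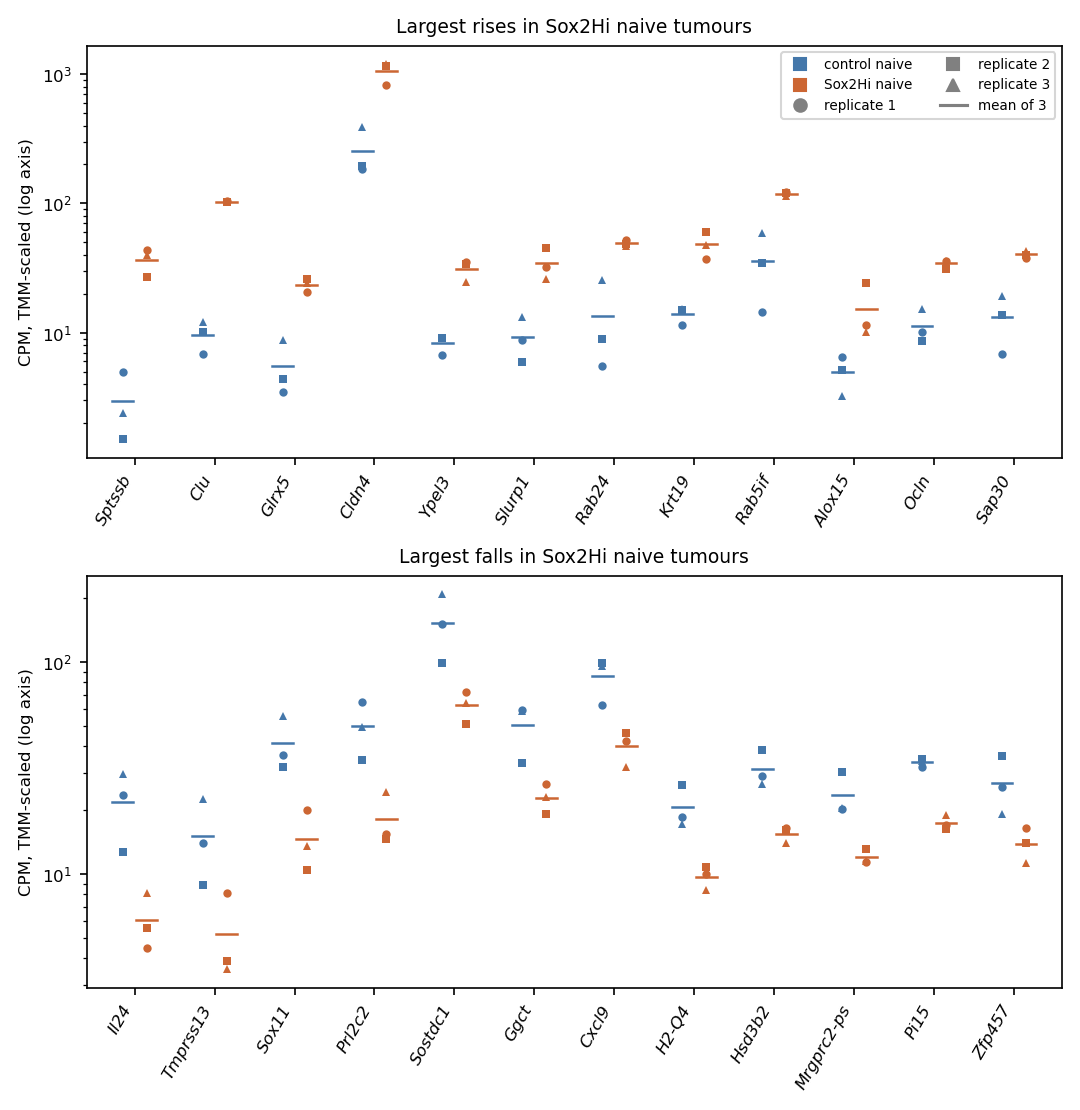
TMM-scaled CPM (log axis) of the 12 largest rises (top) and the 12 largest falls (bottom) among named genes in the 3 control (blue) and 3 Sox2Hi (orange) naive libraries, with the replicate as the marker shape and a line at the mean of 3. The 3 Sox2Hi libraries sit above the 3 control libraries for each rise and below them for each fall, as the naming rule required, and Sptssb and Clu show the widest gaps.

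Keratins and genes of tight junctions were among the rises, with Cldn4, Ocln and Krt19 in the 12 largest. A list of keratins outside the basal ones and one of tight-junction genes were drawn up after these values had been seen, so their counts describe the pattern and are not independent evidence of it. Of 4 keratins of simple epithelia tested, 3 were called higher (Krt8, Krt18 and Krt19), with a median log2 difference of 1.09, beside 3.18% called higher among all genes. Of 11 junction genes tested, 4 were called higher (Cldn4, Ocln, Cgn and Crb3) and none lower, with a median of 0.57. Krt4 and Krt13, keratins of wet stratified epithelia on the same list, averaged under 5 CPM in control naive libraries and could pass the filter only through libraries where they were higher, so they are left out of the count.

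Promoters of 3 of the rises and of 1 of the falls are printed to show the sequence in front of genes that moved in these data. Each is the 250 bases before the start of the gene in RefSeq (GRCm38.p6), written 5′ to 3′ on the strand of the gene, at chr3:69859895-69860144 (minus) for Sptssb, chr5:134946935-134947184 (minus) for Cldn4, chr15:102027966-102028215 (plus) for Krt18 and chr5:92328080-92328329 (minus) for Cxcl9. Capitals mark matches to the motifs searched.
Sptssb: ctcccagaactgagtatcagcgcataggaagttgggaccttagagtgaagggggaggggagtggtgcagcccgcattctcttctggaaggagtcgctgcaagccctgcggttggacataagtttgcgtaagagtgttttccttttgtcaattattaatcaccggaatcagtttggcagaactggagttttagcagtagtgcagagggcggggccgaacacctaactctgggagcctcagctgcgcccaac
Cldn4: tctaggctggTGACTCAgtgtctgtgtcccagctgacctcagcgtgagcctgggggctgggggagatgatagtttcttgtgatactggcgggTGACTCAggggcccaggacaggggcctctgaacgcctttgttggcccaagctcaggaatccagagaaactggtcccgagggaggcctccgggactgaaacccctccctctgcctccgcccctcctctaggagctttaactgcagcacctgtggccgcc
Krt18: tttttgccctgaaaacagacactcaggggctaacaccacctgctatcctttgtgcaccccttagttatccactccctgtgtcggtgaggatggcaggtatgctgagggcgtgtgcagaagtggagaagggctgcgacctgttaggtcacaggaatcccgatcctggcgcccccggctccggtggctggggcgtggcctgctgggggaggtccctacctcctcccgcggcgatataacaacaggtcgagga
Cxcl9: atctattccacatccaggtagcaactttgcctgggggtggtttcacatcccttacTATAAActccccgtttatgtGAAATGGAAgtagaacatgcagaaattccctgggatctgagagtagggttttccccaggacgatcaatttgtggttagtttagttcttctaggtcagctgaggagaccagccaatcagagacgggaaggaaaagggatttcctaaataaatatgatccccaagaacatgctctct
The search used both strands and CATTGT for SOX factors, TGANTCA for AP-1, TTCNNNGAA for the STAT site called GAS, GAAANNGAA for the interferon response element and TATAAA for the TATA box. No matches of different motifs overlapped in these 4 windows. Cldn4 held 2 AP-1 matches, starting 240 and 158 bases before the gene, and Cxcl9 held 1 TATAAA match, starting 195 bases before it, and 1 match to the interferon response element, starting 175 bases before it. Sptssb and Krt18 held no match to these 5 strings in this window, and other forms of these sites were not searched. Among 32536 promoters of that length, 10.5% held CATTGT, 6.73% TGANTCA, 7.04% TTCNNNGAA, 7.15% GAAANNGAA and 12.3% TATAAA.

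Cldn4 (chromosome 5, 134945119 to 134946934) encodes claudin 4, a sealing protein of tight junctions. It stood at 183, 196 and 387 CPM in control and 828, 1148 and 1191 CPM in Sox2Hi libraries. Every Sox2Hi library was above 2 times the highest control library, and the log2 difference was 2.05 (SE 0.33, edgeR adjusted p-value 0.025). Ocln encodes occludin, the first membrane protein found at tight junctions. Its values were 10.1, 8.60 and 15.2 CPM in control and 35.8, 31.2 and 36.1 CPM in Sox2Hi libraries (log2 difference 1.60, SE 0.27, edgeR adjusted p-value 0.025). Cgn (cingulin, which links the junction to the cytoskeleton) and Crb3 (an apical polarity protein) were higher by 1.15 and 1.11. Tjp1 and F11r, further parts of the junction, had log2 differences of 0.37 and 0.32 and were not called.

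Krt18 (chromosome 15, 102028180 to 102032027) and Krt8 encode partner keratins of simple epithelia. Krt18 was at 693, 626 and 810 CPM in control and 1334, 1233 and 1816 CPM in Sox2Hi libraries. Krt8 was at 524, 484 and 674 CPM in control and 1044, 988 and 1319 CPM in Sox2Hi libraries. Both groups kept the same order of libraries, with replicate 3 highest, and did not overlap. The log2 differences were 1.04 (SE 0.18) for Krt18 and 0.99 (SE 0.20) for Krt8 (edgeR adjusted p-value 0.025 for each). Krt19, another keratin of ducts and simple epithelia, rose from 13.9 ± 2.2 to 48.5 ± 11 CPM (SD, n = 3 each), a log2 difference of 1.80. Krt4, a keratin of the lining of the oesophagus and other wet stratified epithelia, was at 1.24, 1.63 and 1.57 CPM in control and 8.07, 13.6 and 8.26 CPM in Sox2Hi libraries (log2 difference 2.75, SE 0.56). Krt4 could pass the filter only through libraries where it was higher, so its call is description only. Krt7 had a log2 difference of 1.14 and missed the threshold (edgeR adjusted p-value 0.052, and 0.017 with the replicate block).

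The wider list of 25 keratinocyte genes tested did not move as a block. Krt18, Krt8, Cdh1 (E-cadherin, 0.81) and Epcam (an adhesion protein of epithelial cells, 0.65) were called higher and none was called lower. Among all genes 3.18% were called higher and 8.59% lower. Its median was -0.21, which turned to 0.06 with the factors from all genes. Krt5, the basal keratin, was at 241, 94.1 and 346 CPM in control and 123, 85.9 and 136 CPM in Sox2Hi libraries. The control libraries ranged widely and overlapped the Sox2Hi libraries, and the log2 difference of -0.98 was not called (edgeR adjusted p-value 0.16). Krt14 (-0.58), Krt17 (-0.58), Trp63 (the basal-cell transcription factor, -0.56) and Col17a1 (a collagen of basal attachment, -1.05) were not called either. The 26 keratinocyte markers took 0.434%, 0.294% and 0.666% of counts in control and 0.539%, 0.494% and 0.678% in Sox2Hi libraries, so their sum overlapped between the grafts. None of the 26 was without reads in any naive library. The 24 tight-junction genes took 0.0387% to 0.0677% of counts in control and 0.120% to 0.178% in Sox2Hi libraries. Much of this sum was Cldn4. Summed, the list stood at 359, 349 and 586 CPM in control and 1075, 1393 and 1463 CPM in Sox2Hi libraries. Cldn4 alone stood at 183, 196 and 387 CPM and at 828, 1148 and 1191 CPM. The libraries are of bulk RNA from sorted cells, so a larger share of epithelial cells and more of this RNA per cell cannot be told apart, and the part of epithelial RNA in the rises was not tested.

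**Figure D2:**
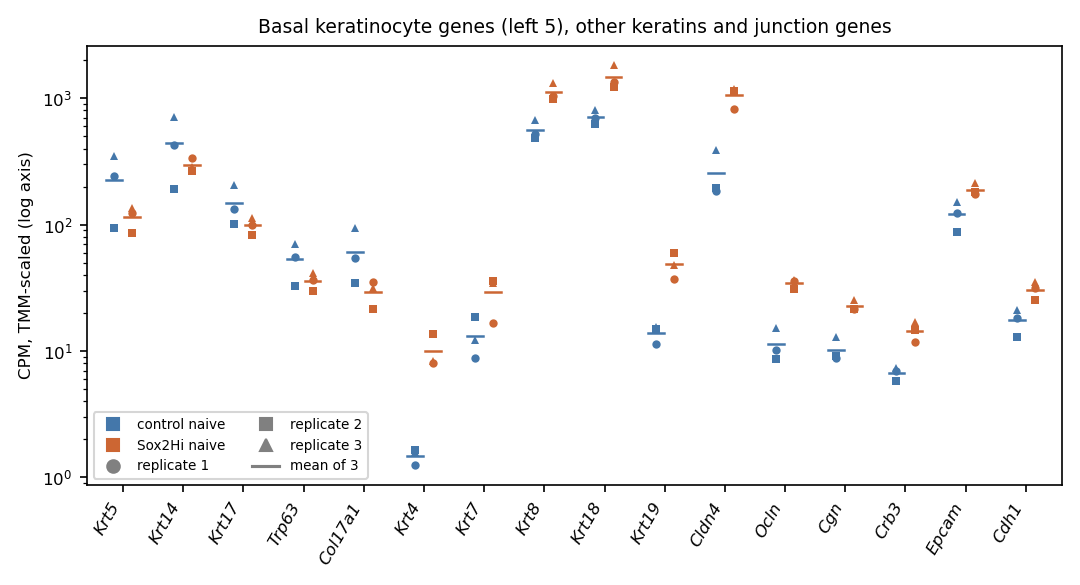
TMM-scaled CPM (log axis) of 5 basal keratinocyte genes (left) and of other keratins and junction genes in the 3 control (blue) and 3 Sox2Hi (orange) naive libraries, with the replicate as the marker shape and a line at the mean of 3. Krt5 and Krt14 overlap between the grafts. Krt8, Krt18, Krt19, Cldn4 and Ocln do not, which the naming rule required of Krt19, Cldn4 and Ocln.

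Slurp1, a secreted protein of keratinocytes, rose from 9.29 ± 3.7 to 34.4 ± 9.6 CPM (log2 difference 1.88), and Tspan1, a tetraspanin of glandular epithelia, from 4.53 ± 0.74 to 14.9 ± 6.0 CPM (1.72, SD, n = 3 each). Tmprss11e, a membrane protease of squamous epithelia, was at 38.5, 35.8 and 48.5 CPM in control and 108, 112 and 136 CPM in Sox2Hi libraries. Its groups were well apart (log2 difference 1.54, SE 0.19, edgeR adjusted p-value 0.016). Msln (mesothelin, 1.49), Aqp5 (the water channel of salivary and lung glands, 1.42), Aqp1 (another water channel, 1.75) and Adh7 (an alcohol dehydrogenase of the upper digestive tract, 1.99) were also called higher. These 5 genes are not among those named by rule and were chosen after their values were seen, because they were called in treated tumours as well. Tspan1, Aqp1 and Adh7 averaged 4.53, 3.96 and 3.37 CPM in control naive libraries. They could pass the filter of 5 CPM only through libraries where they were higher, so their calls are description only.

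The remaining large rises were of genes with general roles. Glrx5, a mitochondrial glutaredoxin of iron-sulphur cluster assembly, rose from 5.55 ± 2.8 to 23.6 ± 2.8 CPM (log2 difference 2.08). Ypel3, a small growth regulator, rose from 8.36 ± 1.4 to 31.3 ± 5.6 CPM (1.90). Rab24, a small GTPase of autophagy, was at 5.52, 8.93 and 25.7 CPM in control and 52.5, 48.8 and 46.6 CPM in Sox2Hi libraries (1.87). Rab5if (1.72) and Sap30, a subunit of a histone deacetylase complex (1.60), shared with Rab24 a wide spread in control libraries, with replicate 1 lowest and replicate 3 highest in all 3 genes. Their adjusted p-values were 0.046 for Rab24, 0.048 for Rab5if and 0.036 for Sap30 by edgeR. Alox15, a lipoxygenase that makes lipid mediators of macrophages and eosinophils, rose from 4.96 ± 1.6 to 15.3 ± 7.7 CPM (1.62), with 24.1 CPM in Sox2Hi replicate 2 and 11.5 and 10.2 CPM in the others. Its control mean lay under 5 CPM, so it passed the filter through libraries where it was higher. The 7 eosinophil markers took 0.00418% to 0.00680% of counts in control and 0.00703% to 0.0109% in Sox2Hi libraries, also highest in Sox2Hi replicate 2, and none of the 4 tested was called. Their part in the rise of Alox15 was not tested.

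Glycolysis genes leaned upwards. Of 28 genes of hypoxia and glycolysis tested, 4 were called higher and none lower, beside 3.18% called higher among all genes, 25 had a difference above 0, and the median was 0.42, beside 0.04 over all genes tested. With the replicate block 7 were called higher, beside 4.57% of all genes in that fit. Pkm, the pyruvate kinase of glycolysis, was at 317, 344 and 402 CPM in control and 708, 592 and 656 CPM in Sox2Hi libraries. Eno1, an enolase, was at 544, 449 and 583 CPM in control and 849, 817 and 843 CPM in Sox2Hi libraries. In both enzymes every Sox2Hi library was above every control library, with log2 differences of 0.88 (SE 0.21) for Pkm and 0.67 (SE 0.16) for Eno1 (edgeR adjusted p-values 0.028 and 0.027). Aldoa, an aldolase (0.77), and Slc2a1, the glucose transporter Glut1 (0.68), were the other called members. Ldha (0.41), Pgk1 (0.17) and Vegfa (-0.15) were not called.

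In the sphingolipid pathway 13 genes were tested, with a median of 0.17. Sptssb averaged 2.95 CPM in control naive libraries and passed the filter through its Sox2Hi libraries, so it is left out of the count. Of the other 12 genes 2 were called higher and none lower, beside 3.18% called higher among all genes. Cers2, a ceramide synthase of very long acyl chains, was at 66.0, 69.5 and 67.3 CPM in control and 99.4, 107 and 113 CPM in Sox2Hi libraries. Its log2 difference was 0.65 (SE 0.14, edgeR adjusted p-value 0.025), and Cers5, another ceramide synthase, had 0.42 (SE 0.12, adjusted p-value 0.0499 by edgeR). With the replicate block Cers5 was not called (0.42, edgeR adjusted p-value 0.051), which left Cers2 as the only call beside Sptssb. The catalytic subunits Sptlc1 and Sptlc2 had 0.06 and 0.20, and Sptssa, the paralogue of Sptssb, had 0.10, none of them called.

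Falls that met the naming rule were fewer (83) than rises (300), and the largest were smaller. With factors from all genes, H2-Q4 alone of the 12 largest falls was still called, against 8 of the 12 largest rises, and the other 11 falls stayed below 0. Il24, a cytokine of the interleukin 10 family made by stressed keratinocytes, was at 23.6, 12.6 and 29.5 CPM in control and 4.45, 5.54 and 8.12 CPM in Sox2Hi libraries. It fell by 1.86 on the log2 scale (SE 0.42, edgeR adjusted p-value 0.025). Sox11, a transcription factor related to Sox4 and active in embryonic and repairing epithelium, was at 36.2, 32.0 and 55.5 CPM in control and 20.003, 10.5 and 13.5 CPM in Sox2Hi libraries. No Sox2Hi library reached the lowest control library, as the naming rule required. The log2 difference was -1.49 (SE 0.29, edgeR adjusted p-value 0.025). Prl2c2 (proliferin, a growth factor of the prolactin family, -1.45), Tmprss13 (a membrane protease of epidermis, -1.54), Sostdc1 (an inhibitor of BMP and Wnt signals, -1.29) and Ggct (an enzyme of glutathione turnover, -1.14) fell too. Prl2c2 belongs to a family of near-identical copies, so its own value is uncertain. Hsd3b2, Mrgprc2-ps, Pi15 and Zfp457, the remaining falls named, had log2 differences from -1.01 to -0.95.

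Interferon-induced genes leaned downwards, with few calls in the fit without a replicate block. Of 49 interferon-stimulated genes tested, none was called higher and 2 lower, Ifi204 and Xaf1, beside 8.59% called lower among all genes. Among named protein-coding genes alone, 2.41% were called lower. In 42 of the 49 the difference was below 0, and the median was -0.34, beside 0.04 over all genes tested. With factors from all genes the median was -0.05 and edgeR called none of the list, while 8086 of 29648 genes reached an unadjusted p under 0.05. With the replicate block 10 were called, all lower, beside 10.2% of all genes called lower in that fit. Ifi204, a DNA sensor, was at 248, 228 and 247 CPM in control and 198, 150 and 122 CPM in Sox2Hi libraries. Xaf1, a promoter of cell death, was at 97.1, 110 and 103 CPM in control and 75.1, 78.0 and 59.96 CPM in Sox2Hi libraries. The Sox2Hi libraries of both genes lay below all control libraries, and the log2 differences were -0.62 (SE 0.18) for Ifi204 and -0.54 (SE 0.14) for Xaf1 (edgeR adjusted p-values 0.047 and 0.037).

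Well-known members of the programme were not called one by one. Isg15, the ubiquitin-like modifier, was at 541, 885 and 520 CPM in control and 482, 574 and 351 CPM in Sox2Hi libraries, so the groups overlapped. Its log2 difference was -0.47 (edgeR adjusted p-value 0.25). Ifit1 (-0.60), Ifit3 (-0.66), Mx1 (-0.64) and Cxcl10 (-0.75) gave edgeR adjusted p-values of 0.13, 0.17, 0.078 and 0.074. Irf7, a factor that transmits the signal, had a log2 difference of 0.14 and was not called. With the block the adjusted p-values of Ifit1 and Mx1 were 0.042 and 0.036.

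Of 39 targets of interferon gamma tested, none was called higher and 2 lower, with a median of -0.31. Among all genes 8.59% were called lower, and among named protein-coding genes 2.41%. With factors from all genes the median was -0.02 and 1 was called lower, beside 0.216% of all genes in that fit. With the block 5 were called lower, beside 10.2% of all genes called lower in the fit with the block. Cxcl9, a chemokine that draws T cells, was at 62.7, 98.2 and 96.1 CPM in control and 42.4, 46.3 and 31.97 CPM in Sox2Hi libraries. No Sox2Hi library reached a control library, as the naming rule required. The log2 difference was -1.09 (SE 0.30, edgeR adjusted p-value 0.040). H2-Q4, a class I gene of the major histocompatibility complex with close relatives, fell by 1.09 (SE 0.19), from 20.7 ± 5.0 to 9.70 ± 1.2 CPM (SD, n = 3 each). Cd274, which encodes PDL1, was at 228 ± 37 and 202 ± 42 CPM and did not pass the test (-0.17, edgeR adjusted p-value 0.64). The guanylate-binding genes Gbp2, Gbp4 and Gbp7 had -0.43, -0.43 and -0.52 and were not called, though Gbp7 was with the block (-0.52, edgeR adjusted p-value 0.026).

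The receptors and signalling parts above these targets did not lean the same way. Of 19 signalling genes tested, none was called in either direction, and the median was 0.11. The median was 0.41 with factors from all genes, and 3 were then called higher, Ifnar1 among them, beside 1.67% of all genes in that fit. Ifnar1 was at 33.9 ± 5.7 CPM in control and 47.8 ± 5.8 CPM in Sox2Hi libraries, a log2 difference of 0.49 (edgeR adjusted p-value 0.095, and 0.043 with factors from all genes). Ifngr1 had 0.35 (adjusted p-value 0.37). The 7 genes of class II antigen presentation had a median of -0.06 (0.23 with factors from all genes) with no call. Cd74, the invariant chain, was at 6045 ± 1386 CPM in control and 6303 ± 1464 CPM in Sox2Hi libraries.

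**Figure D3:**
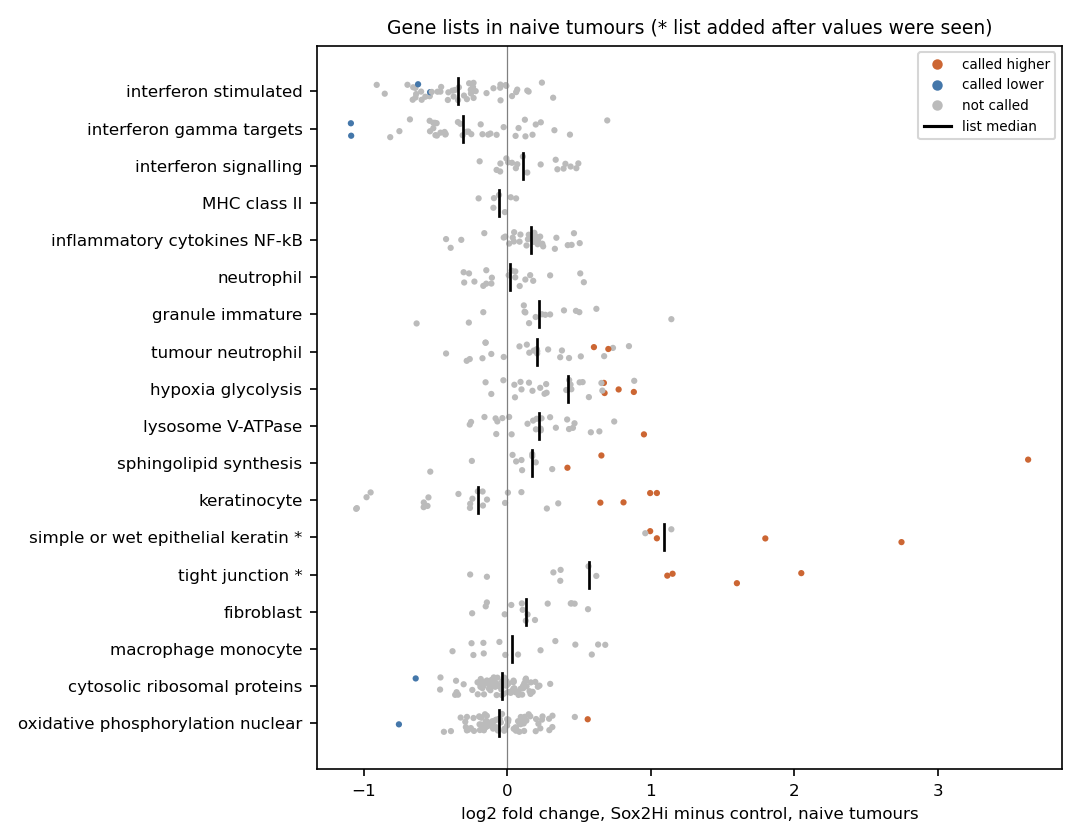
Log2 difference of each tested gene (points) in 18 gene lists, Sox2Hi minus control in naive tumours, with called genes in colour and a black bar at the list median. The interferon lists sit left of 0 at medians of -0.34 and -0.31, glycolysis sits right of it at 0.42, and the starred lists of keratins and junction genes, chosen after values were seen, reach furthest right together with Sptssb.

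Neutrophil identity genes lay near 0 as a list in the main fit. None of the 20 was called, their median was 0.02, and they ran from -0.31 to 0.53. With factors from all genes their median was 0.31. S100a8, a calcium-binding alarm protein of neutrophils, was at 1561 ± 368 and 1266 ± 450 CPM, and Csf3r, the receptor for the growth factor of granulocytes, at 89.7 ± 24 and 130 ± 32 CPM (SD, n = 3 each). Of 25 genes of tumour neutrophils, Lgals3 (galectin 3, 0.70) and Xbp1 (a factor of the unfolded protein response, 0.60) were called higher, beside 3.18% of all genes, and 1 gene of the list was called with factors from all genes. Lamp1, a membrane protein of lysosomes, was the only call among 26 lysosomal genes (0.95, SE 0.21, edgeR adjusted p-value 0.025), at 105, 124 and 165 CPM in control and 264, 238 and 260 CPM in Sox2Hi libraries. On factors from all genes, 5 lysosomal genes were called higher, beside 1.67% of all genes in that fit and 3.18% in the main fit. The lysosomal median was 0.51 against 0.22. No call was made among 16 granule genes (median 0.22) or 30 NF-kB genes (median 0.16), though with the replicate block Icam1, an adhesion molecule on the NF-kB list, was called higher (0.43, edgeR adjusted p-value 0.045). Among 80 ribosomal protein genes only Rps29 was called, lower by 0.64, and among 76 nuclear genes of oxidative phosphorylation Ndufv1 was called higher (0.56) and Atp5k lower (-0.76).

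Markers of other cells were present at low shares. Fibroblast genes took 0.0781% to 0.202% of counts in control and 0.144% to 0.211% in Sox2Hi libraries, and macrophage and monocyte genes 0.108% to 0.158% and 0.155% to 0.213%. No gene of the fibroblast, macrophage, dendritic, T-cell or endothelial lists was called, except that Fn1 (fibronectin, on the fibroblast list) was called higher with the replicate block (0.55, edgeR adjusted p-value 0.042). Of the 12 genes of B and plasma cells tested, only Igkc, the kappa light chain constant region, was called higher, beside 3.18% of all genes. With the replicate block 4 were called higher, Igkc, Ighm, Ighg2b and Cd79a (edgeR adjusted p-values from 0.016 to 0.047), beside 4.57% of all genes in that fit. A member low in control libraries could pass the filter of 5 CPM through Sox2Hi replicate 2 alone, so these counts are description only. Igkc was at 148, 201 and 73.8 CPM in control and 235, 2999 and 403 CPM in Sox2Hi libraries. The value of Sox2Hi replicate 2 was over 7 times that of the next library, and the log2 difference of 3.10 (SE 0.86, edgeR adjusted p-value 0.043) was 1.10 without it. The list took 0.561% of counts in that library, 0.0961% and 0.113% in the other Sox2Hi libraries and 0.0318% to 0.0535% in control.

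Reads over genes taken as silent differed between the grafts as well. Extrapolated from 1464 olfactory and vomeronasal receptor genes, the expected background was 5.68%, 8.37% and 5.02% of counts in control and 3.92%, 3.63% and 3.74% in Sox2Hi libraries. Of 265 of these receptor genes that passed the filter, 189 were called lower (71.3%) and none higher, with a median of -0.81. Among 1433 predicted or clone-named genes 534 were called lower (37.3%), with a median of -0.62. The 9403 named protein-coding genes held 342 of the 359 rises but 227 of the 968 falls, and their median was 0.08. Called falls had a median expected background of 10.2% of their reads and called rises 4.45%. Gm10800, a gene over a satellite repeat, took 9.12%, 7.58% and 8.78% of counts in control and 4.34%, 5.49% and 4.24% in Sox2Hi libraries. Among the named falls, background made up 1.09% of the reads of Prl2c2, 3.33% of Il24, 9.98% of Sox11 and 9.21% of Pi15. The part of the background in the falls was not tested.

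**Figure D4:**
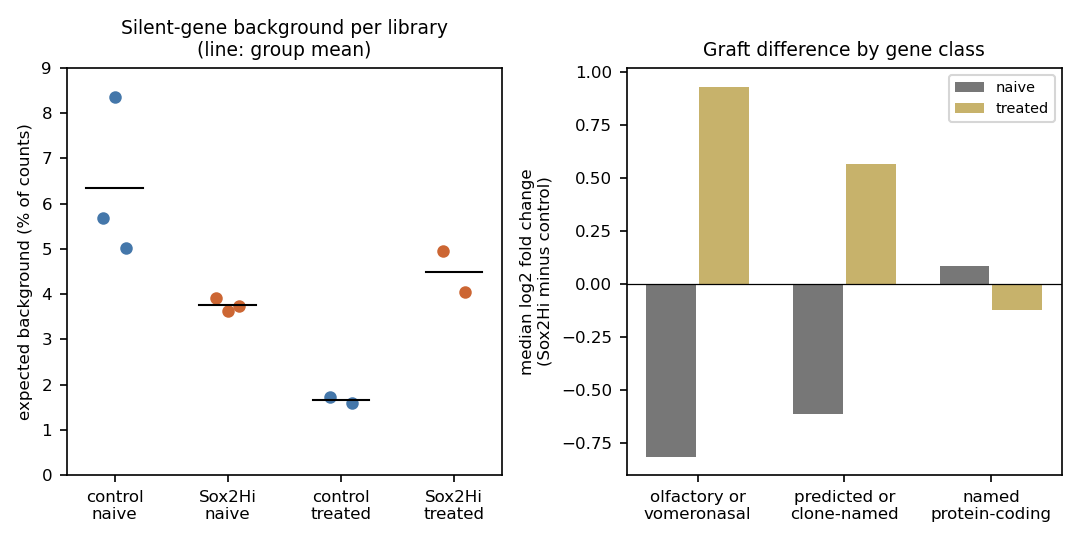
Left, expected background as a percentage of counts in each library (points) with the mean of each group (lines). Right, bars from 0 at the median log2 difference, Sox2Hi minus control, of receptor genes, predicted genes and named protein-coding genes in naive and treated tumours. Background was higher in control than in Sox2Hi naive libraries and lower in control than in Sox2Hi treated libraries, and the medians of the receptor genes were -0.81 and 0.93.

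The treated tumours gave the graft difference in 4 other libraries, with none shared. There 2471 genes were called (21.9%), 1331 higher in Sox2Hi (11.8% of genes tested) and 1140 lower (10.1%). This balance turned with the processing, to 1226 higher and 2853 lower with factors from all genes and to 1318 and 1823 with DESeq2. The number of treated calls also fell whichever treated library was left out, and the overlaps below rest on these calls. Of the 359 naive rises, 53 were also called higher in treated tumours, which is 14.8% of the naive list and 3.98% of the treated list. That share is close to the 11.8% called higher among all genes. Of the 968 naive falls, 10 were also called lower (1.03% of the naive and 0.877% of the treated list), while 672 were called higher. With factors from all genes, 1226 of 29648 genes tested were called higher in treated tumours and 2853 lower. Beside this, 30 of 494 naive rises were also called higher in treated tumours and 120 called lower. Of 64 naive falls, 2 were also called lower and 22 called higher. The interaction of graft and treatment was called for 2671 genes (23.7%), 1644 with the treated difference above the naive one (14.6%) and 1027 below it (9.11%). With factors from all genes 3328 were above and 4829 below, and with DESeq2 1647 and 1708, so the majority above held in neither. The 2671 genes included 908 of the naive falls and 143 of the naive rises.

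Several of the rises named above were called in both sets. Sptssb was at 0.447 and 0.300 CPM in control treated and 68.1 and 37.3 CPM in Sox2Hi treated libraries, a log2 difference of 7.14 (SE 0.64, edgeR adjusted p-value 0.0010). Clu was at 3.42 and 8.65 CPM in control treated and 24.7 and 33.2 CPM in Sox2Hi treated libraries (2.25, SE 0.37, edgeR adjusted p-value 0.011). Krt4 (4.54), Tspan1 (3.04), Slurp1 (2.23), Krt19 (2.06), Cldn4 (1.64), Cgn (1.44), Krt18 (1.26), Krt8 (1.17) and Cdh1 (1.13) were called in treated tumours too, with Ocln at 0.97 missing the threshold (edgeR adjusted p-value 0.056). For none of these except Sptssb did the interaction pass the test. Sptssb, Krt4 and Tspan1 averaged under 5 CPM in control naive libraries and could pass the filter only through libraries where they were higher.

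Among the shared falls were Sox11, Prl2c2 and Ggct with the interferon-induced genes Ifi204 and Xaf1 and with Casp1, the protease that activates interleukin 1, which was picked out after its values were seen. Sox11 was at 29.998 and 26.4 CPM in control treated and 12.6 and 7.12 CPM in Sox2Hi treated libraries (-1.51), close to its naive difference. Casp1 was at 138, 112 and 167 CPM in control naive and 80.5, 95.9 and 81.0 CPM in Sox2Hi naive libraries (-0.69, SE 0.16), and the treated difference was -1.02. Xaf1 had -1.10 and Ifi204 -1.06 in treated tumours, and the interaction was not called for either. In treated tumours 18 of the 49 interferon-stimulated genes were called lower, with a median of -0.65, and 14 of the 39 interferon gamma targets, with a median of -0.57, beside 10.1% called lower among all genes. Lists outside the interferon programme had medians of that size or further below 0 in the same tumours. Of the 20 neutrophil identity genes 11 were called lower (median -0.98), of the 25 tumour neutrophil genes 13 (-0.86), and of the 26 lysosomal genes 12 (-0.59). The part of a lower neutrophil signal in the treated interferon values was not tested. With factors from all genes these 5 medians ran from -1.31 to -0.91.

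Glycolysis genes and several of the larger rises were not called higher in treated tumours. The glycolysis list had a median of -0.54 in treated tumours, with 8 of 28 called lower, beside a median of -0.07 and 10.1% called lower over all genes. For Pkm the treated difference was -0.48 and the interaction -1.36 (edgeR adjusted p-value 0.016, and 0.066 without Sox2Hi treated replicate 1). Rab24 (treated -0.86), Rab5if (-0.66), Ypel3 (-0.43) and Sap30 (-0.38) also differed between the sets by the interaction, although none of their treated differences was called (edgeR adjusted p-values from 0.34 to 0.61). Rab24 was at 81.1 and 52.5 CPM in control treated and 17.3 and 56.3 CPM in Sox2Hi treated libraries, and in all 4 genes Sox2Hi treated replicate 1 was the lowest library while replicate 2 lay within or near the control range. Without Sox2Hi treated replicate 1 the interaction was still called for Ypel3 (-1.78, edgeR adjusted p-value 0.022) and not for Rab24 (-2.12), Rab5if (-1.73) or Sap30 (-1.35), with adjusted p-values from 0.13 to 0.15. The interaction was also called for the falls H2-Q4, Hsd3b2, Mrgprc2-ps, Pi15 and Zfp457. In treated tumours the last 4 were called higher in Sox2Hi, by 0.94 (Pi15) to 1.202 (Mrgprc2-ps), and H2-Q4 had 0.67 and was not called (edgeR adjusted p-value 0.063).

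**Figure D5:**
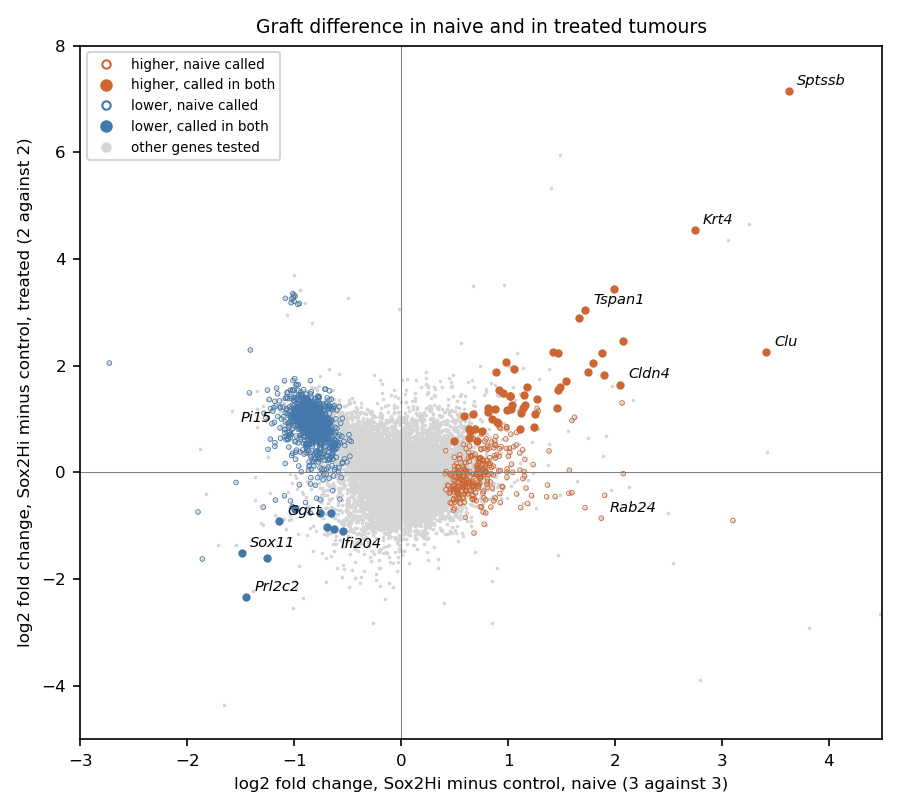
Log2 difference, Sox2Hi minus control, of each tested gene in naive tumours (horizontal axis, 3 against 3 libraries) and in treated tumours (vertical axis, 2 against 2), with naive calls as open circles and genes called in the same direction in both as filled circles. Sptssb, Krt4, Clu and Cldn4 lie at the upper right, Sox11 and Prl2c2 at the lower left, and the dense cloud of naive falls lies above 0 on the treated axis. The axes leave out 24 genes, all immunoglobulin segments.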

How the data were processed

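RNA of sorted neutrophils was sequenced in bulk after a microprep column extraction and a library kit for single cells and low input, per the labels' protocols. The authors deposited 1 table of estimated counts per gene, whole numbers as deposited; the submitters' processing notes name kallisto 0.44.0 and mm10. Of its entries, 55385 are mouse genes, and the other 96 (spike-ins and transgenes, at most 0.00277% of a library's counts) stayed out of sizes and tests. Of the identifiers, 55144 had a symbol and position in GENCODE M21 (GRCm38), and 53 of 74 named genes had a promoter in RefSeq (GRCm38.p6). Estimated counts can split near-identical copies between genes.

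All 10 libraries entered 1 edgeR 4.0.16 quasi-likelihood fit (R 4.3.3) of 4 groups without a replicate block, on 11274 genes averaging 5 CPM or more, which also gave the TMM factors. Adjusted p-values are Benjamini-Hochberg over all genes tested, called under 0.05. SE is the log2 fold change over the square root of F. The common biological coefficient of variation was 0.213. Expected background scaled the median exon coverage of 1464 receptor genes to the exon length of each gene. Members, lists and rules were chosen with earlier results of these data known, so no list was tested as a set. Named genes are the 12 largest rises and 12 largest falls called without overlap of groups, with a mean of at least 10 CPM and background under 25% of reads, leaving out predicted genes, receptors and immunoglobulins. To these come, from each list, the largest called rise and fall and the highest gene, and a fixed set that includes Sox2, Ly6g and interferon genes. Some genes of the lists and of this set are not reported here. Alternatives used DESeq2 1.42.0, limma-voom (limma 3.58.1), other factors, filters, a block, a Y-linked covariate and fits without 1 library.

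The replicate numbers of the titles were checked for pairing. Deviations from the group mean correlated across genes at 0.273, 0.324 and 0.474 for same-numbered naive libraries and from -0.427 to 0.0431 for others, so same-numbered libraries varied together. This rests on the data, as no label gives the meaning of a number. The main fit did not use this pairing. A block for it, in a fit of the naive libraries alone, raised the naive calls from 1327 to 2726. Replicates of a group differed by at least 12.5 in chi-square per degree of freedom, so each library counted as 1 sample. On simulated data with 11274 genes, the naive contrast recovered 57% of 100 genes changed by 1 on the log2 scale and 98% of 100 changed by 2, with 9 calls among 11074 unchanged genes. The simulated libraries had no background difference between the grafts and no pairing. These rates therefore need not hold for the real libraries.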

Additional observations from a re-analysis of the deposited data

Results flagged for a closer look

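Of 74 named genes tested, 20 had a graft difference that was not the same in naive and treated tumours by the interaction term of the edgeR fit (adjusted p-values from 0.0015 to 0.0498). That is 27.0%, close to the 23.7% called among all genes, and many were named for a large naive difference. Without 1 library, 9 (Sox2Hi treated replicate 1) to 16 (Sox2Hi treated replicate 2) of the 20 were still called, and none changed sign. Values are the log2 difference in treated minus that in naive tumours. For Sptssb it was 3.51, since the difference was larger in treated tumours (7.14) than in naive ones (3.63). For 4 rises of naive tumours, Rab24 (-2.73), Rab5if (-2.38), Ypel3 (-2.34) and Sap30 (-1.98), the treated difference was below 0 but not called (adjusted p-values from 0.34 to 0.61), and Sox2Hi treated replicate 1 was the lowest treated library in each.

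Of the falls in naive tumours, Mrgprc2-ps (2.18), Zfp457 (2.12), Hsd3b2 (2.08) and Pi15 (1.89) were called higher in treated Sox2Hi tumours. H2-Q4 had 1.76, and its treated difference of 0.67 was not called (edgeR adjusted p-value 0.063). Gm10800, over a satellite repeat, had 4.09, with -0.90 in naive and 3.18 in treated tumours. Its share of counts was 0.503% and 0.686% in control treated and 5.29% and 8.67% in Sox2Hi treated libraries, beside an expected background of 1.74% and 1.58% and of 4.96% and 4.04%. The part of background in these values was not tested.

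The other named genes had a treated difference below the naive one. Pkm had -1.36, Lamp1 -1.23, Eno1 -1.11, Degs1 (a desaturase of ceramide synthesis) -0.85 and Ndufv1 -0.69. Lgals3 had -1.24 and Cxcl2, a chemokine that draws neutrophils, -1.02. In each fit without 1 naive library the interaction of Ndufv1 and of Cxcl2 was not called, whereas that of Eno1 was. Ccr3, an eosinophil chemokine receptor, had -1.79, with 0.79 in naive tumours (edgeR adjusted p-value 0.12). Igkc had -4.01, and its naive value rests on Sox2Hi replicate 2 at 2999 CPM.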

How the results depend on the processing

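The count of 1327 genes called between naive grafts became 558 with factors from all genes (494 higher, 64 lower), 376 with genes of at least 20 CPM (79 and 297), 812 with background subtracted (182 and 630) and 2726 with the replicate block in the naive libraries alone (1120 and 1606). With the block, set for the naive libraries only, and all 10 libraries in the fit it was 1668, and 1293 calls were shared in the same direction. The other 9 settings that kept all 6 naive libraries gave from 897 to 1871. Fits without 1 naive library gave from 3 to 1997, with 2346 to 3340 genes at an unadjusted p under 0.05. For treated grafts the count of 2471 became 4079 with factors from all genes (1226 higher, 2853 lower) and ran from 213 to 1215 without 1 library. For the interaction the count of 2671 became 8157 with those factors (3328 and 4829) and ran from 1334 to 2834 without 1 library. An arm left with 1 library was assumed to vary like the others. Of 35 named genes called, 35 kept their call with the block, 35 with DESeq2, 34 with limma-voom, 24 with background subtracted and 15 with factors from all genes. Without control naive replicate 1, 2 or 3 they were 2, 3 and 32, and without Sox2Hi naive replicate 1, 2 or 3 they were 20, 14 and 2. No named gene called changed sign in any of these settings.
Depth limits genes averaging under 5 CPM, which were not among the 11274 tested. A gene without reads could stand at up to 0.147 to 0.196 CPM in a naive library, from 3 counts, covering counting error only.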

Other observations

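Further rises shared by both sets of tumours, chosen after their values were seen, were of genes with no list here. Nupr1, a stress-induced nuclear protein, was at 433, 357 and 574 CPM in control naive and 1018, 975 and 1236 CPM in Sox2Hi naive libraries (log2 difference 1.24, SE 0.20, edgeR adjusted p-value 0.025), and had 0.84 in treated tumours. Pls1, an actin-bundling protein of the brush border of the gut, was at 3.61, 5.28 and 3.55 CPM in control and 13.7, 13.2 and 19.2 CPM in Sox2Hi naive libraries (1.90, SE 0.27, adjusted p-value 0.025 by edgeR), and had 1.82 in treated tumours. Pls1 averaged 4.15 CPM in control naive libraries and could pass the filter of 5 CPM only through libraries where it was higher. Kcnk1, a potassium channel, rose from 10.1 ± 3.2 to 28.2 ± 8.2 CPM (SD, n = 3 each), a log2 difference of 1.47, with 2.23 in treated tumours.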
